A study of Mus musculus with 6 samples.

Results

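The genes described are 38 mouse genes of the heat shock response and of cytosolic protein folding, taken by symbol from the 38926 genes of the deposited expression table. They are the heat shock factors Hsf1 and Hsf2, the HSP90, HSP70, HSP110 and HSP40 chaperones with small heat shock protein and BAG3 genes, 10 co-chaperones, 3 mitochondrial chaperones, 7 subunits of the cytosolic chaperonin CCT, and the polyubiquitin gene Ubb. The list names genes by class, with no threshold on a measured value, and was made with earlier results of these data known. Of the 38, 36 had a mean of at least 1 FPKM (fragments scaled to gene length and sequencing depth) over the 6 libraries and were tested among 11436 genes, and Hsf2 and Hspb1 lay below that mean.

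RNA was sequenced from LSK cells, a bone marrow fraction rich in blood stem cells and early progenitors that lacks lineage markers and carries Sca-1 and Kit. The donors were wild-type C57BL/6 mice of 8 to 12 weeks, given injections on 3 consecutive days of either haloperidol, an antipsychotic that blocks dopamine receptors, or the solvent DMSO. Femur and tibia were crushed and digested with collagenase, drug or solvent stayed with the cells while they were sorted, and the sorted cells went straight into lysis buffer. Each group had 3 libraries. The labels do not say whether these came from separate mice or from pools, so the spread behind the p-values is that between samples and could be technical. They name no sorting or sequencing day, and any batch that coincided with treatment cannot be told apart from it.

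The libraries held 8523556 to 8969024 gene-assigned reads (recovered from the FPKM values), and 3 reads, the upper limit that a count of 0 allows, were 0.334 to 0.352 RPM (reads scaled to library size). Such limits cover counting error only. The gate genes Kit (87.8 ± 7.38 FPKM in DMSO, 81.0 ± 9.78 in haloperidol, mean ± SD, n = 3) and Ly6a, which encodes Sca-1 (136 ± 10.2 and 138 ± 10.5 FPKM), were present in all libraries, and neither passed the test for a difference. Haemoglobin and other red cell genes summed to between 3593 and 5496 FPKM per library, and the groups overlapped.

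Heat shock factor 1 is held inactive in the cytosol by chaperones and, when unfolded proteins draw those chaperones away, forms trimers that bind heat shock elements, arrays of the unit GAA in alternating orientation, in the promoters of chaperone genes. HSP70 proteins bind exposed hydrophobic stretches of a client with the help of HSP40 (J-domain) proteins and are recharged by nucleotide exchange factors such as HSP110. HSP90 matures kinases and steroid receptors in a cycle steered by co-chaperones, and CCT folds actin and tubulin.

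With haloperidol, Hsph1 and Chordc1 fell by 63.1% and 52.9%, and 10 other genes of the HSP70, HSP40 and co-chaperone classes fell by 13.3% to 31.4%. The co-chaperone genes that rose were Ptges3 and Stub1, at 16.6% and 21.5% above DMSO. No HSP90, heat shock factor, mitochondrial or CCT gene passed the test in either direction (limma), although Hspa9 and Cct2 had unadjusted p of 0.027 and 0.038, and Hspa9 passed with voom on recovered reads (adjusted p = 0.0398). In counts, 12 of the 36 tested members were lower and 2 higher, and 22 did not pass (limma on log2(FPKM + 1), Benjamini-Hochberg adjusted over all genes tested, threshold 0.05). Of all 11436 genes, 13.0% were lower, 11.5% higher and 24.5% called in either direction, against 33.3%, 5.56% and 38.9% of the members. The median log2 fold change of the members was -0.06, with 23 negative and 13 positive, while that of all genes was 0.00. The 3 DMSO and the 3 haloperidol values did not overlap for 19 of the 36 members (52.8%), 14 of them lower and 5 higher, beside 43.1% of all genes. In a bulk sample, fewer cells of a type and less RNA per cell cannot be told apart.

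**Figure D1:**
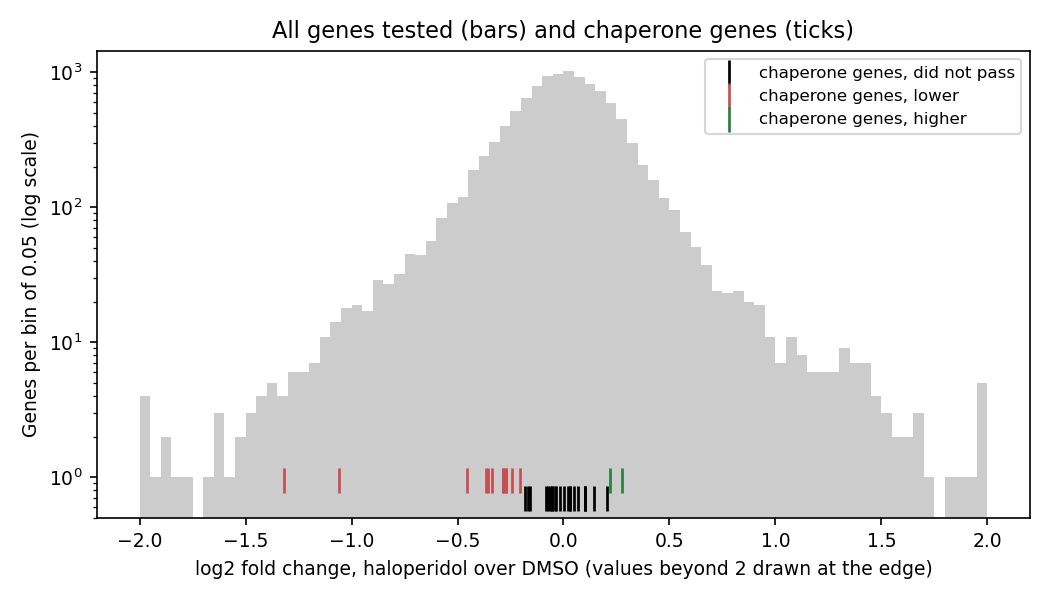
Log2 fold changes, haloperidol over DMSO, of the 11436 genes tested (grey bars, genes per bin on a log axis, values beyond 2 drawn at the edge) with the 36 chaperone genes as ticks. Of these, 12 that passed as lower lie between -1.32 and -0.21, with Hsph1 and Chordc1 apart from the other 10, and the 2 that passed as higher lie at 0.22 and 0.28.

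Hsph1, Chordc1, Dnajb6 and the pair Hspd1 and Hspe1 carry a full heat shock element close to an annotated start, and these sites are shown because heat shock factor 1 is known to bind that element. The element searched was GAANNTTCNNGAA, on both strands, in the RefSeq windows from 250 bases before to 50 after the start (GRCm38.p6), where 30 of the 38 members had a window. Sequences are given on the strand of the gene, with the element in capitals.
Hsph1: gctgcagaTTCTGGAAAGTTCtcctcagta
Chordc1: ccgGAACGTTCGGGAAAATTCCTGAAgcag
Dnajb6: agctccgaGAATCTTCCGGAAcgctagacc
Hspd1: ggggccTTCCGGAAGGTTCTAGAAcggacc
Hspe1: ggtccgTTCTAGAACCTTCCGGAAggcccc

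The Hsph1 stretch is at chr5:149636279-149636308 on the minus strand, in an untranslated exon. Its element is at bases 16 to 28 after the RefSeq start of that window. The outer end of the gene, 149636498, lies further upstream, so the position holds for that start only. That of Chordc1 is at chr9:18292260-18292289 on the plus strand and spans the start, and its capitals hold 3 overlapping matches. Dnajb6 has its stretch at chr5:29735844-29735873 on the plus strand, before 2 of its RefSeq starts and inside an untranslated exon of a GENCODE transcript. Hspd1 and Hspe1 lie head to head on opposite strands, and their sequences are the same bases, chr1:55088053-55088082, read from each side.

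The full element was found in 5 of the 30 members with a window (16.7%), against 179 of 27025 genes with a window (0.662%). The members were chosen as genes of the heat shock response, so a higher share was built into the choice and is no result of these data. Hspd1 and Hspe1 are both counted for the 1 site that they share. With 1 of its 9 fixed letters allowed to differ, it was found in 16 of the 30 (53.3%) and in 8.15% of all genes. Of the 10 lower members with a window 3 had the full element, and neither Ptges3 nor Stub1 did. Over the 47 tested genes with the full element, 7 were lower (14.9%) and 6 higher (12.8%). These shares lie near those of all genes tested (13.0% and 11.5%), and the median log2 fold change of the 47 was 0.00. A match in this window describes letters only, and binding was not measured here. Hsf1, Ppid, St13, Hsp90ab1, Cct4, Hsp90aa1, Hspa8 and Hspa9 had no window in the table.

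Among the heat shock factors, Hsf1, the main stress-responsive factor of the family, was at 34.7, 31.6 and 34.1 FPKM in DMSO and 25.2, 32.6 and 31.9 FPKM in haloperidol. The low value of haloperidol replicate 1 stands apart from the other 5, and the groups overlapped. Its log2 fold change was -0.17 (95% interval -0.38 to 0.05, adjusted p = 0.245, limma), so a difference was not detectable. Without haloperidol replicate 1 it was -0.05. Hsf2, a related factor active in development, had 19, 16 and 12 reads in DMSO and 23, 15 and 31 reads in haloperidol (0.677 ± 0.155 and 1.0 ± 0.344 FPKM), and the groups overlapped. Hsbp1, which encodes a small protein that binds heat shock factor trimers and is not one of the 38, was at 168, 174 and 166 FPKM in DMSO and 144, 147 and 144 FPKM in haloperidol. It fell by 0.22 on the log2 scale (SE 0.04, adjusted p = 0.00799, limma).

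The 2 cytosolic HSP90 genes did not pass. Hsp90ab1, the constitutive form, was the second most abundant of the 38 per length, at 778, 690 and 737 FPKM in DMSO and 698, 709 and 733 FPKM in haloperidol. These ranges overlapped, and the log2 fold change was -0.04 (95% interval -0.17 to 0.08, adjusted p = 0.627, limma). Hsp90aa1, the stress-inducible form, was at 137, 123 and 131 FPKM in DMSO and 141, 138 and 141 FPKM in haloperidol. Every haloperidol library was above every DMSO library, by a small margin, with a log2 fold change of 0.10 (95% interval -0.02 to 0.22, adjusted p = 0.186, limma). Of the 50-base stretches of Hsp90aa1 transcripts, 58.5% also occur in other genes, most of them in the predicted gene Gm12346, so its reads may be split with such copies.

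The ratio of the inducible to the constitutive HSP90 gene within a library, in which library scaling cancels, was 0.176, 0.179 and 0.178 in DMSO and 0.202, 0.194 and 0.192 in haloperidol. The 3 haloperidol ratios lay above all DMSO ratios, with a mean log2 difference of 0.14, given as a description with no test. For the inducible HSP70 pair Hspa1a and Hspa1b over the constitutive Hspa8, the ratio was 0.0297, 0.0249 and 0.0288 in DMSO and 0.0391, 0.0284 and 0.0349 in haloperidol. There the groups overlapped, and neither gene of the numerator passed while Hspa8 fell. Of the 50-base stretches of Hspa1a, Hspa1b and Hspa8, 60.3%, 62.3% and 51.4% occur in other genes, so the level of this ratio is uncertain.

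**Figure D2:**
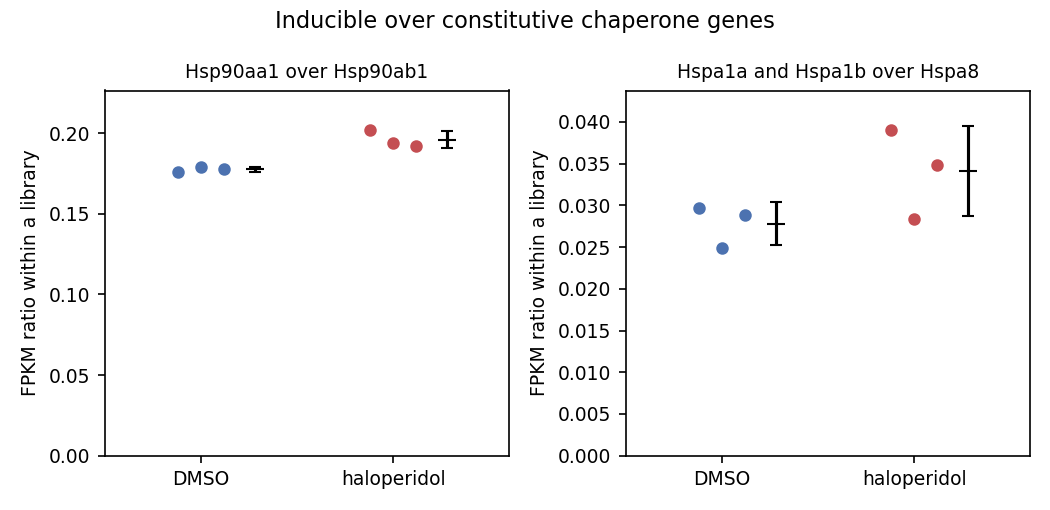
Ratio of FPKM values within each library for Hsp90aa1 over Hsp90ab1 (left) and for Hspa1a plus Hspa1b over Hspa8 (right), as points for 3 DMSO and 3 haloperidol libraries with mean and SD beside them. The left-hand ratios run from 0.176 to 0.179 in DMSO and from 0.192 to 0.202 in haloperidol, while on the right haloperidol replicate 2 (0.0284) lies within the DMSO range.

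Of the 6 HSP70 and HSP110 genes, 3 fell, and their summed level went from 681 ± 19.9 to 546 ± 7.05 FPKM (mean ± SD, n = 3). Hsph1 encodes HSP105, an HSP110 protein that exchanges the nucleotide of HSP70. It was at 19.4, 18.8 and 25.6 FPKM in DMSO (1215, 1150 and 1626 reads) and at 7.38, 8.23 and 7.94 FPKM in haloperidol (447, 515 and 498 reads). DMSO replicate 3 was the highest, and the lowest DMSO value was still more than 2-fold above the highest haloperidol value. Its log2 fold change was -1.32 (SE 0.11, adjusted p = 1.94e-04, limma), and the smallest fall with any library left out was -1.18, without DMSO replicate 3. By size it was 24th of the 1487 falls, and 0.691% of all genes were called and at least 2-fold lower. The gene lies at chr5:149616843-149636498 (mm10), and none of its 50-base stretches occurs in another gene.

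Hspa8 encodes HSC70, the constitutive cytosolic HSP70, and was the most abundant HSP70 gene. It was at 572, 552 and 582 FPKM in DMSO and 456, 444 and 452 FPKM in haloperidol. Both groups were tight and stood well apart, and the level fell by 0.34 on the log2 scale (SE 0.04, adjusted p = 0.00128, limma). Of the 50-base stretches of Hspa8, 51.4% occur in other genes, mostly in the predicted gene Gm15459, so its level is uncertain. Hspa4l, a further HSP110-family gene, was at 5.87, 6.75 and 7.33 FPKM in DMSO and 4.63, 4.76 and 4.29 FPKM in haloperidol. It fell by 0.46 on the log2 scale (SE 0.09, adjusted p = 0.0103, limma) with no overlap. Its close relative Hspa4 was nearly level, at 68.2, 69.4 and 68.1 against 67.1, 68.7 and 67.7 FPKM, with a 95% interval of the log2 fold change from -0.12 to 0.08.

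The stress-inducible HSP70 genes had low FPKM values in both groups. Hspa1a was at 6.98, 5.45 and 5.59 FPKM in DMSO and 6.64, 4.41 and 4.90 FPKM in haloperidol, and Hspa1b had 250, 202 and 283 reads in DMSO (8.30 to 11.2 FPKM) and 269, 204 and 271 reads in haloperidol (8.19 to 11.2 FPKM). The groups overlapped for both genes, with log2 fold changes of -0.16 (95% interval -0.48 to 0.17) and 0.03 (-0.27 to 0.33). A fall of the size seen for Hspa8 lay inside the interval of Hspa1a and just outside that of Hspa1b. The 2 genes are near-identical copies, with 58.8% of the 50-base stretches of Hspa1a present in Hspa1b, so reads cannot be assigned with certainty between them. How shared reads were counted is not given in the sources used here, so both levels may be understated. Hspa1a also overlaps exons of the predicted gene Gm20481 on the other strand. The library kit keeps no strand.

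Among the 5 HSP40 genes, which hand clients to HSP70 and speed its ATP hydrolysis, 3 fell (60.0%, against 13.0% of all genes). The class sum went from 396 ± 13.8 to 341 ± 2.07 FPKM. Dnajb1, the main stress-inducible HSP40, was at 164, 157 and 161 FPKM in DMSO and 137, 129 and 132 FPKM in haloperidol. The groups were well separated, and the level fell by 0.27 (SE 0.05, adjusted p = 0.00416, limma). Dnaja1, a farnesylated HSP40 that works with HSC70, was at 72.7, 63.3 and 74.8 FPKM in DMSO and 54.9, 52.2 and 56.6 FPKM in haloperidol. It fell by 0.36 on the log2 scale (SE 0.07, adjusted p = 0.00804, limma). Dnajb6, which suppresses aggregation of polyglutamine proteins, was at 43.2, 39.3 and 39.8 FPKM in DMSO and 33.2, 35.6 and 34.1 FPKM in haloperidol. Its fall of 0.24 (SE 0.06, adjusted p = 0.0177, limma) did not pass without DMSO replicate 1 (adjusted p = 0.0534) or without haloperidol replicate 1 (0.0608).

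Dnaja2 (105, 110 and 120 against 102, 112 and 103 FPKM) and Dnajb4 (13.1, 12.2 and 13.7 against 13.4, 13.8 and 12.7 FPKM), both J-domain partners of cytosolic HSP70, overlapped between groups. Their log2 fold changes were -0.08 (95% interval -0.22 to 0.07) and 0.03 (-0.13 to 0.19). Dnajb6 shares 35.8% and Dnaja1 18.7% of their 50-base stretches with other genes, and exons of Gm5129 and Smu1 overlap them on the other strand, so reads of these genes may be mixed.

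Hspb1, a small heat shock protein that holds unfolded proteins in soluble complexes, had 4, 1 and 12 reads in DMSO and 2, 2 and 6 reads in haloperidol. It was not tested, and a difference was not detectable at these read counts. Of its 50-base stretches, 51.6% also occur in the pseudogene Hsp25-ps1, so its reads may be split with that copy. Bag3, which links HSP70 to autophagy, was at 5.58, 3.56 and 4.54 FPKM in DMSO and 4.26, 5.64 and 6.28 FPKM in haloperidol. The groups overlapped, and its log2 fold change of 0.21 had the widest interval of the tested members (95% interval -0.16 to 0.57, adjusted p = 0.386, limma). With a library left out it ran from 0.07 (without DMSO replicate 2) to 0.34 (without haloperidol replicate 1).

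**Figure D3:**
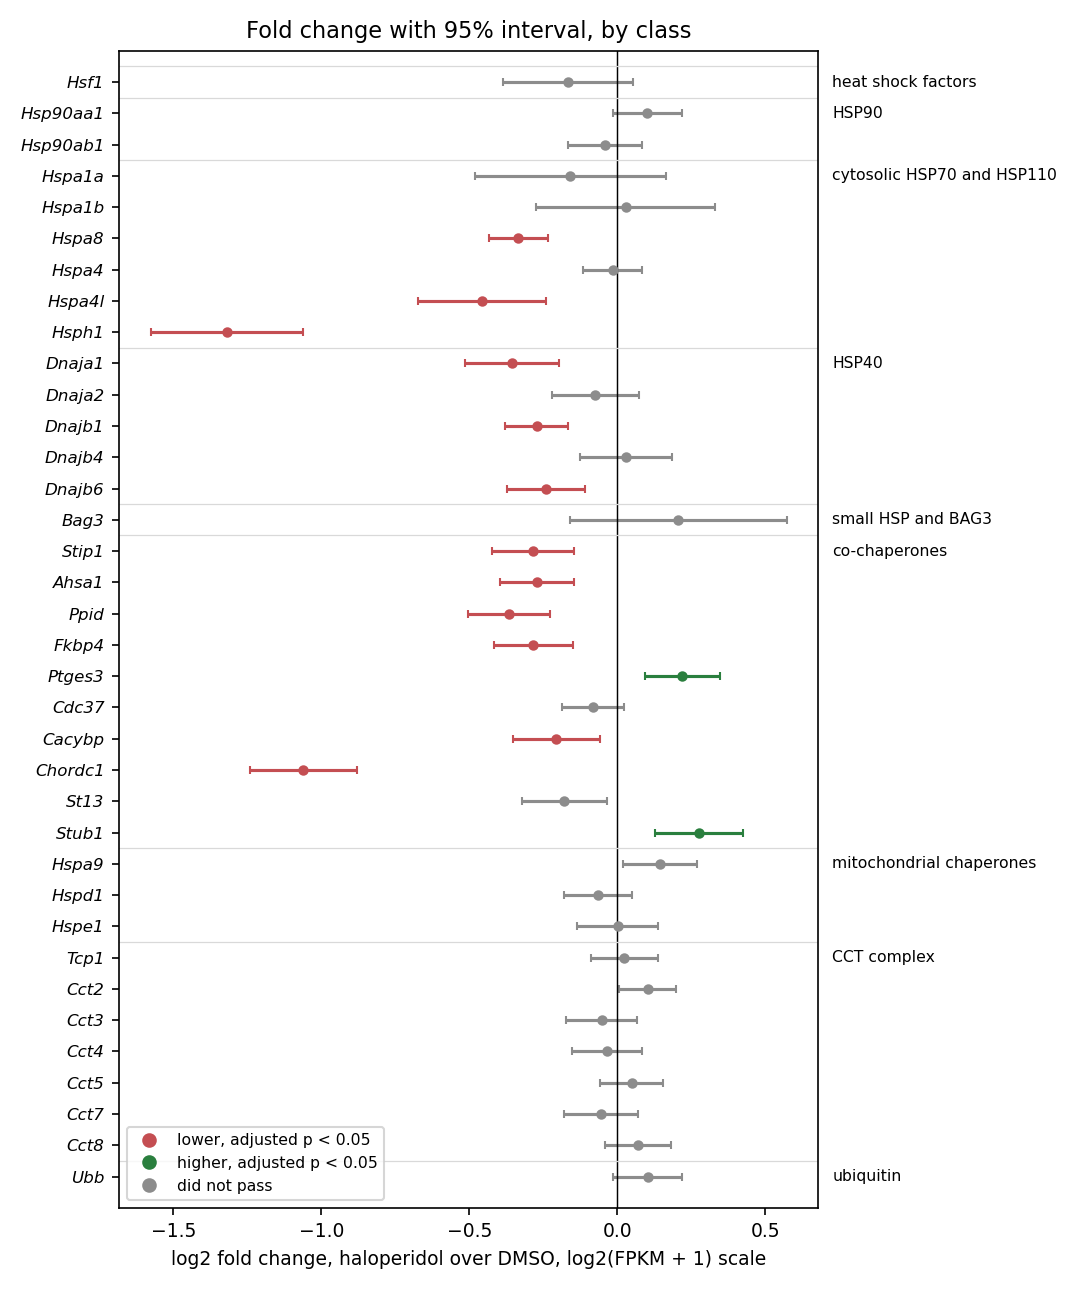
Log2 fold change, haloperidol over DMSO, on the log2(FPKM + 1) scale for the 36 tested genes, ordered by class, as points with 95% intervals (limma). Lower genes (red) fall in the HSP70 and HSP110, HSP40 and co-chaperone classes, both higher genes (green), Ptges3 and Stub1, are co-chaperones, and the 7 CCT intervals all lie between -0.18 and 0.20.

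The co-chaperones held the most calls: of 10 genes, 6 fell (60.0%, against 13.0% of all genes) and 2 rose (20.0%, against 11.5%). All 10 had groups that did not overlap, beside 43.1% of all genes. Their summed level went from 1172 ± 60.4 to 1022 ± 35.7 FPKM. Chordc1 encodes morgana, a CHORD-domain partner of HSP90. It was at 65.3, 66.9 and 78.7 FPKM in DMSO (1285, 1282 and 1565 reads) and at 33.3, 34.9 and 31.2 FPKM in haloperidol (632, 684 and 613 reads). DMSO replicate 3 was again the highest, and the groups stood far apart. The log2 fold change was -1.06 (SE 0.08, adjusted p = 9.8e-05, limma), the 64th largest of the 1487 falls, and was -0.98 without DMSO replicate 3. The gene lies at chr9:18292267-18314000 (mm10), and 0.331% of its 50-base stretches occur elsewhere.

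Ppid, a cyclophilin that docks on HSP90 through a tetratricopeptide domain, was at 30.9, 28.5 and 32.1 FPKM in DMSO and 23.2, 23.1 and 23.9 FPKM in haloperidol, and fell by 0.37 on the log2 scale (SE 0.06, adjusted p = 0.00366, limma). Ahsa1 encodes AHA1, the activator of the HSP90 ATPase. It was at 185, 186 and 199 FPKM in DMSO and 149, 161 and 163 FPKM in haloperidol, and fell by 0.27 (SE 0.05, adjusted p = 0.00927, limma). Fkbp4, the immunophilin FKBP52 of steroid receptor complexes, was at 193, 199 and 222 FPKM in DMSO and 164, 171 and 168 FPKM in haloperidol, and fell by 0.28 (SE 0.06, adjusted p = 0.0103, limma). In each of these 3 genes the lowest DMSO library was above the highest haloperidol library.

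Stip1 encodes HOP, which joins HSP70 to HSP90. It was at 155, 162 and 178 FPKM in DMSO and 133, 141 and 131 FPKM in haloperidol, and fell by 0.28 (SE 0.06, adjusted p = 0.0119, limma). Cacybp, a partner of the ubiquitin ligase SIAH1, was at 128, 126 and 138 FPKM in DMSO and 104, 120 and 116 FPKM in haloperidol. Its fall of 0.21 (SE 0.06) passed by the narrowest margin of the 12 (adjusted p = 0.0476, limma) and did not pass in 5 of the 6 fits with a library left out, with adjusted p between 0.0716 and 0.138 in those 5.

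The 2 genes that rose are given library by library because they run against the rest, a choice made after their values were seen. Ptges3 encodes p23, which stabilises the closed, ATP-bound state of HSP90, and was at 96.1, 91.2 and 101 FPKM in DMSO and 107, 114 and 115 FPKM in haloperidol. Its rise of 0.22 on the log2 scale (SE 0.06, adjusted p = 0.0216, limma) missed the threshold with DMSO replicate 1 or 2 or haloperidol replicate 2 or 3 left out (0.055 to 0.0833), and 22.1% of its 50-base stretches occur in the pseudogene Ptges3-ps. Stub1 encodes CHIP, the ubiquitin ligase that marks clients of HSP70 and HSP90 for degradation, and was at 53.7, 50.6 and 56.2 FPKM in DMSO and 62.9, 62.0 and 70.2 FPKM in haloperidol. It rose by 0.28 (SE 0.06, adjusted p = 0.0171, limma), with an adjusted p of 0.0651 without DMSO replicate 2, and Jmjd8 overlaps its exons on the other strand.

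The last 2 co-chaperone genes did not pass although their haloperidol values were all below the DMSO values. St13, the HSP70-interacting protein HIP, was at 57.5 ± 2.71 and 50.7 ± 3.28 FPKM (log2 fold change -0.18, adjusted p = 0.0705, limma), and Cdc37, which brings kinases to HSP90, at 174 ± 3.77 and 164 ± 5.70 FPKM (-0.08, adjusted p = 0.233). DMSO replicate 3 was the highest DMSO library in 10 of the 12 lower members and in both higher members. Without it, 11 members were lower and 2 higher, and the call lost was that of Cacybp.

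**Figure D4:**
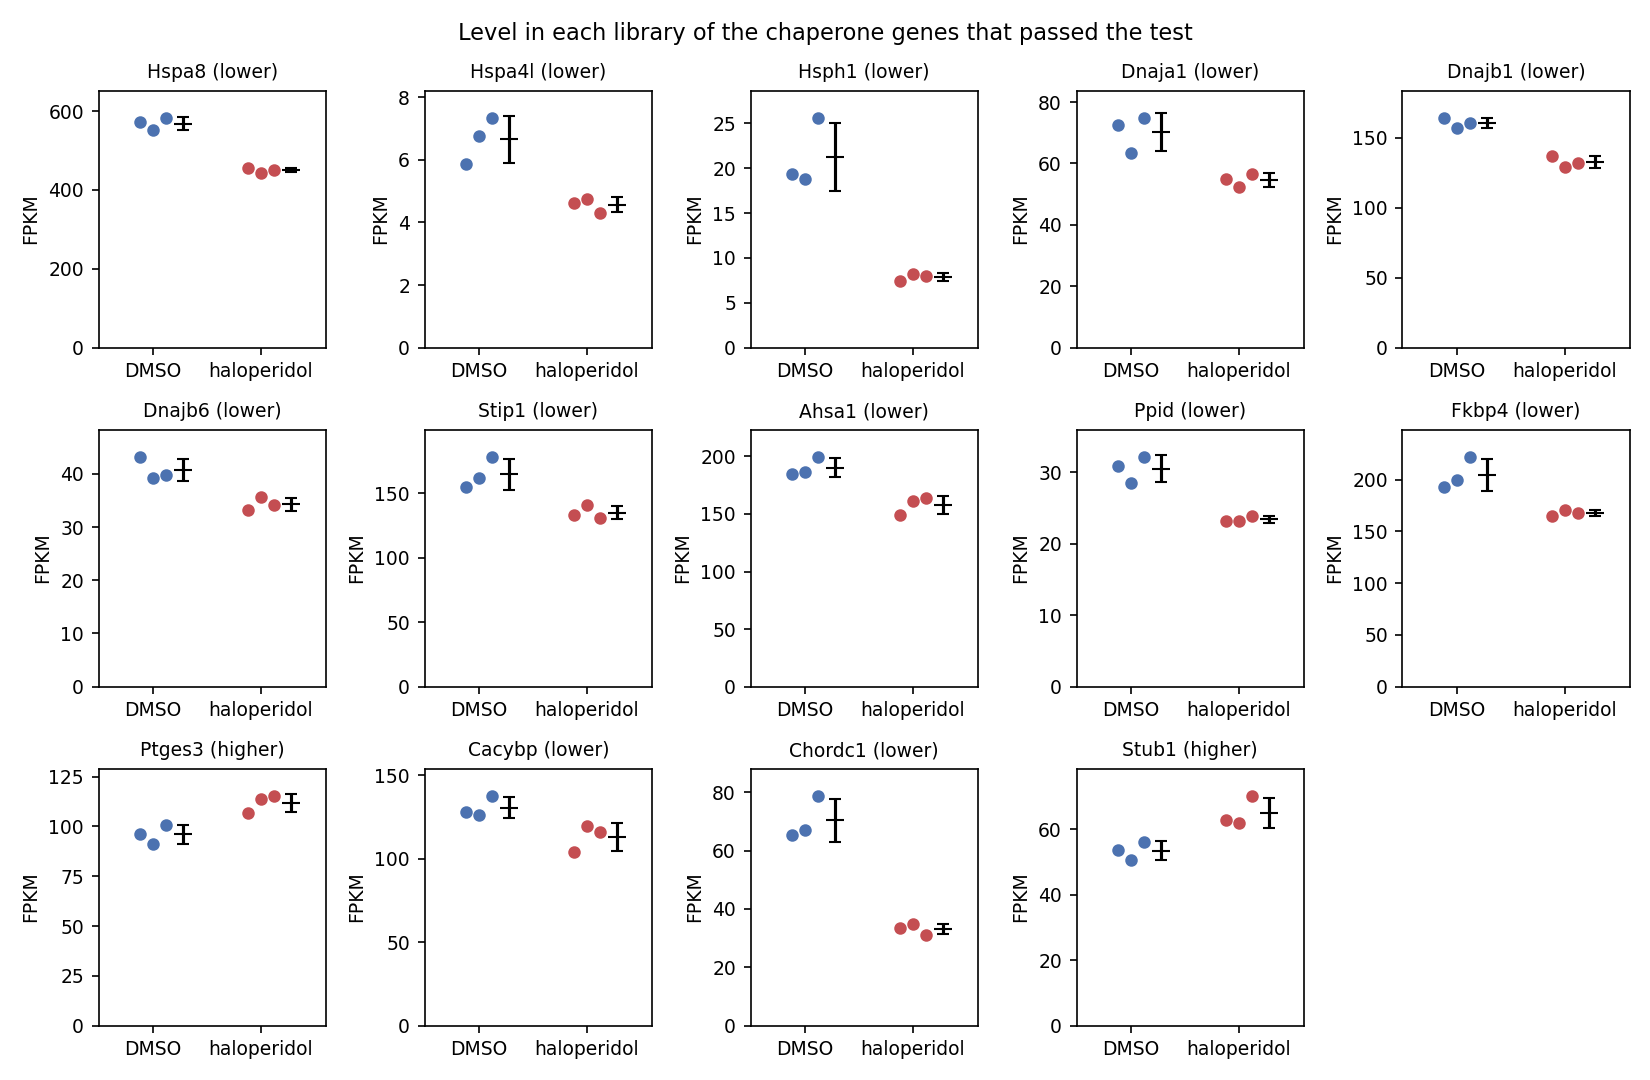
FPKM in each of the 3 DMSO and 3 haloperidol libraries (points) for the 14 chaperone genes that passed the test, with mean and SD beside each group and axes from 0. The separation is widest for Hsph1 (18.8 to 25.6 against 7.38 to 8.23 FPKM) and Chordc1 (65.3 to 78.7 against 31.2 to 34.9 FPKM), and in the other 12 genes the groups lie closer but do not overlap.

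The mitochondrial chaperones did not pass. Hspa9, the mitochondrial HSP70 mortalin, was at 143, 152 and 150 FPKM in DMSO and 155, 174 and 164 FPKM in haloperidol, higher in all 3 haloperidol libraries, with a log2 fold change of 0.14 (95% interval 0.02 to 0.27 before adjustment, adjusted p = 0.0864, limma). Hspd1 and Hspe1 encode HSP60 and HSP10, the barrel and lid of one folding chamber, and share the site shown above. Hspd1 was at 164, 156 and 170 FPKM against 151, 159 and 158 FPKM, and Hspe1 at 94.6, 90.7 and 95.6 against 87.0, 94.5 and 100.1 FPKM. Both overlapped, with log2 fold changes of -0.07 (95% interval -0.18 to 0.05) and 0.00 (-0.13 to 0.14). Pseudogene copies share 44.8% of the 50-base stretches of Hspd1.

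None of the 7 CCT subunit genes passed, with log2 fold changes from -0.05 to 0.10, and their summed level was 1247 ± 36.5 FPKM in DMSO and 1262 ± 36.9 FPKM in haloperidol. The 95% intervals of all 7 lay between -0.18 and 0.20. Cct2 had the smallest p and the only groups of the 7 that did not overlap, at 153, 158 and 155 FPKM in DMSO and 167, 165 and 167 FPKM in haloperidol (adjusted p = 0.109, limma). Cct5, the most abundant of the 7, was at 294, 297 and 305 against 296, 311 and 320 FPKM. Cct8 was at 190, 189 and 198 against 192, 205 and 208 FPKM, Cct3 at 129, 135 and 143 against 127, 135 and 131 FPKM, and the haloperidol means of Tcp1, Cct4 and Cct7 differed from DMSO by 1.57%, -2.28% and -3.69%. Exons of Tcp1, Cct7 and Cct8 overlap genes on the other strand, whose reads cannot be told apart.

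Ubb, a polyubiquitin gene that heat shock factors can induce, was the most abundant of the 38, at 1852, 1819 and 1950 FPKM in DMSO and 2048, 1939 and 2048 FPKM in haloperidol. The groups overlapped narrowly, with a log2 fold change of 0.10 (95% interval -0.01 to 0.22, adjusted p = 0.177, limma), and 55.4% of its 50-base stretches occur in other genes. Together the 38 members took 1.82% ± 0.06 of all reads in DMSO and 1.73% ± 0.02 in haloperidol.

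Outside the 38, 8 lists of other chaperone genes held 84 genes, of which 74 were tested, 10 were lower, 7 higher and 57 did not pass, with a median log2 fold change of 0.01. These shares, 13.5% and 9.46%, lie near those of all genes (13.0% and 11.5%). Of 15 other HSP90 co-chaperones, 3 rose and 3 fell. Fkbp5, the FKBP51 immunophilin that competes with FKBP52 in glucocorticoid receptor complexes, was at 12.6, 11.7 and 10.9 FPKM in DMSO and 32.8, 30.6 and 31.3 FPKM in haloperidol. It rose by 1.36 on the log2 scale, while its relative Fkbp4 fell. Tomm34, a cytosolic co-chaperone of mitochondrial import, fell by 0.43 (SE 0.07, adjusted p = 0.00264) and Sugt1, a co-chaperone of kinetochore assembly, by 0.36 (SE 0.06, adjusted p = 0.00324, limma). The remaining 3, named after their values were seen, were Ttc4 (-0.39), Ruvbl2 (0.26) and Rpap3 (0.25).

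Of the 21 other J-domain genes, Dnajb2 (log2 fold change -0.76) and Dnajc14 (-0.25) fell and Dnajc2 rose (0.24). Dnajb2, a neuronal-enriched HSP40 that carries ubiquitin-interacting motifs, was at 18.7, 18.6 and 19.0 FPKM in DMSO and 9.0, 9.70 and 14.0 FPKM in haloperidol, where replicate 3 was nearer to DMSO (adjusted p = 0.00528, limma). Among 10 tested HSP70 relatives and exchange factors Bag2 fell (-0.32), and among 10 tested prefoldin and CCT helper genes Txndc9 fell (-0.44). Of 12 other mitochondrial chaperone and protease genes, Dnaja3 (-0.20) and Clpx (-0.29) fell and the protease gene Lonp1 rose (0.24). Rps27a, which encodes a ribosomal protein fused to ubiquitin, rose (0.33). Neither of the 2 tested small heat shock protein genes passed, although both had every haloperidol library above every DMSO library. Their log2 fold changes were 0.27 for Hspb6 (adjusted p = 0.137, limma) and 0.28 for Hspb11 (adjusted p = 0.0681, limma).

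Several other gene groups moved with the treatment, and their part in the chaperone results was not tested. The cold-inducible RNA-binding genes rose, Cirbp from 49.7, 46.9 and 44.7 to 152, 138 and 138 FPKM (log2 fold change 1.58) and Rbm3 from 51.5, 57.0 and 49.5 to 91.8, 86.9 and 86.5 FPKM (0.74). Of 17 immediate early genes, which are transcribed soon after a stimulus, 9 fell (52.9%, against 13.0% of all genes) and 3 rose (17.6%, against 11.5%). The sum of the 17 was 10458 to 11155 FPKM in DMSO and 8662 to 9424 FPKM in haloperidol. Of the 3 with the smallest p, Klf6 rose by 0.70 and Atf3 by 0.49, and Dusp1 fell by 0.45.

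Lists of genes used as markers of other cells were read in the same way, and which cells held the RNA was not tested. None of 7 red cell and none of 8 neutrophil genes passed (limma; of the 15, Hbb-bs had an unadjusted p of 0.0156), with sums of 164 to 275 FPKM in DMSO and 168 to 298 FPKM in haloperidol for the latter. Of 6 monocyte and macrophage genes, 3 were tested, Cd68 rose and Lyz2 fell, and the sum was 386 to 436 against 305 to 341 FPKM. Among 7 B and plasma cell genes, 5 were tested and 3 fell (Ighm, Cd79b and Cd79a), with sums of 279 to 365 and 172 to 276 FPKM and Ms4a1 at 0.109 and 0.0365 FPKM. The other 2 did not pass and had positive log2 fold changes, 2.39 for Igkc (unadjusted p = 0.0365, adjusted p = 0.107, limma) and 0.52 for Igj. Igkc varied widely, at 47.6, 1.43 and 22.7 FPKM in DMSO and 47.1, 52.6 and 154 FPKM in haloperidol, and the highest haloperidol sum is that of the replicate with 154 FPKM. Neither of the 2 tested T and NK cell genes passed, of 7 listed; the sum, 313 to 334 against 275 to 319 FPKM, was nearly all Nkg7, and Cd8a was at 0 throughout. Of 6 genes listed as endothelial, 4 were tested and 2 fell (Esam and Emcn), with sums of 44.4 to 47.0 and 31.2 to 33.8 FPKM. Esam was at 24.9 ± 1.21 FPKM in DMSO and 13.0 ± 1.76 in haloperidol, and Pecam1 at 11.2 ± 0.63 and 11.4 ± 0.56 FPKM. Cdh5 was at 0 in DMSO and 0.0285 FPKM in haloperidol, so these sums cannot be assigned to endothelial cells. Of 7 stromal genes, 3 were tested and Pdgfrb rose, with sums of 28.1 to 32.7 and 33.1 to 35.4 FPKM and Bglap at 0. Of 5 mast cell and basophil genes, 2 were tested and both rose (Mcpt8 and Cpa3), with sums of 37.7 to 46.2 and 72.2 to 88.6 FPKM.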

How the data were processed

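The authors deposited 1 table of FPKM values with a column for each of the 6 libraries and 0 columns of other samples. Per the submitters' processing notes, the tools were bcl2fastq 2.19.1.403, TopHat2 2.1.1, HTSeq 0.6.1 and DESeq2 1.18.1 with build mm10. Per the labels' protocols, cDNA came from a SMART-Seq v4 kit and libraries from Nextera XT. Which annotation release was used is not given in the sources used here.

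Deposited FPKM values were whole multiples of the worth of 1 read for 100.0% of the 20633 genes above 0, within 0.001 reads, scaled between libraries by size factors. Recovered reads served for depth, simulated data, 1 alternative, the chi-square of library pairs and all read counts and shares of reads given. Genes with a mean of at least 1 FPKM were tested on log2(FPKM + 1) with limma 3.58.1 (R 4.3.3, trend, two-sided, all 6 libraries, no covariate), with Benjamini-Hochberg adjustment at 0.05. Fold changes on this scale understate the change of low genes. The fit was first tested on simulated data. Chi-square per degree of freedom was 2.80 to 4.48 for libraries of a group, so none was a duplicate.

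Members and lists were chosen with earlier results of these data known. Values by library are given for all members of the small classes (as reads for Hsf2, Hspb1 and Hspa1b), and for the 4 with the smallest p and the 1 with the highest DMSO mean of the co-chaperone, mitochondrial and CCT classes. Outside that rule, Stip1, Cacybp, Ptges3 and Stub1 are also given by library. From other lists up to 3 that passed with the smallest p were named, plus Cirbp, Rbm3, Kit, Ly6a, Fkbp5 and Hsbp1. Some named items are not reported here. Other genes were named after their values were seen. Shared 50-base stretches were counted against GENCODE transcripts. Alternatives changed the pseudocount, filter, scaling, prior variance, weights, block, unit and libraries.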

Additional observations from a re-analysis of the deposited data

How the results depend on the processing

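The count of lower members was 10 to 13 under all 15 alternatives (12 as reported). That of higher members was 2 or 3 with all libraries in and 0 to 2 with a library left out, where 0 was without DMSO replicate 2. The count over all genes was 1814 to 2160 with a library left out, the lowest without DMSO replicate 2, 1954 with no filter on low values and 3322 with voom on recovered reads, against 2807. Of the 14 called members 10 kept their call under every alternative. Cacybp also lost it with no filter (adjusted p = 0.109, limma) and upper quartile scaling (0.0605). Hsp90ab1 passed with quantile normalization (-0.13, adjusted p = 0.035), and St13 and Hspa9 passed with voom (0.0394 and 0.0398). Of the 22 members that did not pass 5 changed sign, as did Ly6a, and the cause was not tested. With a library left out, log2 fold changes ran from -0.08608 to 0.00142 for Hsp90ab1, -0.07719 to 0.1572 for Hspa1b, -0.01108 to 0.06507 for Dnajb4, -0.04606 to 0.05408 for Hspe1, -0.01385 to 0.04347 for Tcp1 and -0.03997 to 0.08355 for Ly6a. Hspe1 was also at -0.01986 with a common FPKM sum, -0.01944 with quantile normalization and -0.002722 with quality weights, and Ly6a at -0.004805 with quantile normalization. With the replicate number as a block, 12 members were lower and 2 higher and 2552 genes were called. Same-number libraries deviated together with correlations of 0.01, 0.05 and 0.02. With 3 libraries a group, such values cannot decide whether the numbers pair the samples. DMSO replicate 1 correlated best with haloperidol replicate 3 (0.06), and DMSO replicates 2 and 3 with haloperidol replicate 2 (0.05 and 0.03). Of the 29 other named genes that passed, 9 lost the call in some alternative, among them Bag2, Clpx, Dnaja3, Dnajc14, Emcn, Lonp1, Pdgfrb and Rps27a. Depth limits Hspb1 and Hsf2, and shared stretches also limit Hspb1.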
